A study of Brassica juncea with 21 samples.

Results

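Brassica juncea, a mustard, carries lateral and median nectaries at the base of each flower, and the table of their transcripts holds 3 copies of jasmonate methyltransferase (JMT). They were taken as the lines whose description names LOC103872765, LOC103829478 or LOC103835835, 3 of 13879 genes, each with 1 transcript. All 3 are Brassica rapa transcripts to which Brassica juncea sequence was matched, and no other transcript of the table matched Arabidopsis JMT (AT1G19640). LOC103872765 and LOC103835835 are described as jasmonate O-methyltransferase and LOC103829478 as jasmonate O-methyltransferase-like. The Arabidopsis gene model matched by each lies on chromosome 1 from 6789166 to 6791708 on the reverse strand, with no build named and with exons and untranslated regions not resolved. The 6 nectary groups were lateral pre-secretory, lateral secretory, lateral post-secretory, median pre-secretory, median secretory and median post-secretory, and the leaf group was collected alongside the secretory stage. Collection was 24 h ahead of anthesis for the pre-secretory stage, in open flowers between 4 and 8 h past dawn for the secretory stage, and 12 h after that for the post-secretory stage, from plants about 40 days old with no genotype or treatment difference stated. Each group had 3 libraries, and each nectary library pooled about 100 hand-dissected nectaries, up to 4 from a flower.

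JMT transfers a methyl group from S-adenosylmethionine to the carboxyl group of jasmonic acid and so makes the volatile ester methyl jasmonate. It belongs to the SABATH family of carboxyl methyltransferases. Jasmonic acid itself is made from linolenic acid in chloroplasts and peroxisomes, and its isoleucine conjugate, made by JAR1, is the form read by the receptor COI1, which triggers removal of the JAZ repressors. A JMT relative was first described in Brassica as a transcript of floral nectaries, and jasmonate is known to promote flower opening and nectar secretion in this plant family.

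The deposited table gives 1 normalized value per group, rounded to a whole number, with no value per library. No replicate spread, test or p-value could therefore be had, and "higher" and "lower" below compare single group values. Differences are on the log2(value + 1) scale, folds are taken from them, and 2-fold or more was counted as a difference. The filter kept 14390 of 14398 transcripts, all 3 JMT copies among them. Column totals ran from 7081592 to 11197495 and the depth of each library is unknown. The lateral post-secretory column lacks the normalization mark that the other headers carry, and each comparison with it assumes the same scale. The nectary markers CRC, SWEET9 and CWINV4 summed to 202693, 333864 and 15361 in lateral nectaries before, during and after secretion. In median nectaries they summed to 100495, 150171 and 26557, against 178 in leaf. All 3 were at least 2-fold lower after secretion than at secretion in lateral (18.4% of all transcripts) and median nectaries (15%). In nectaries 5 transcripts of leaf markers summed to between 19871 and 37226, against 894510 in leaf. In dissected tissue of mixed cells, fewer cells of a type and less RNA per cell cannot be told apart. The stages also differ in time of day, which cannot be told apart from stage.

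All 3 copies were far higher in every nectary group than in leaf. LOC103872765 was listed at 41896, 21729 and 2744 in lateral nectaries before, during and after secretion and at 35658, 23845 and 4803 in median nectaries, against 81 in leaf. LOC103829478 was listed at 2451, 10589 and 6778 in lateral and at 5968, 14678 and 13619 in median nectaries in the same stage order, against 26 in leaf. LOC103835835 was listed at 9085, 14498 and 3298 in lateral and at 6339, 7548 and 5047 in median nectaries, against 14 in leaf. The lowest nectary value of each copy was thus well above its leaf value, while the stage with the highest deposited value differed between copies.

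**Figure D1:**
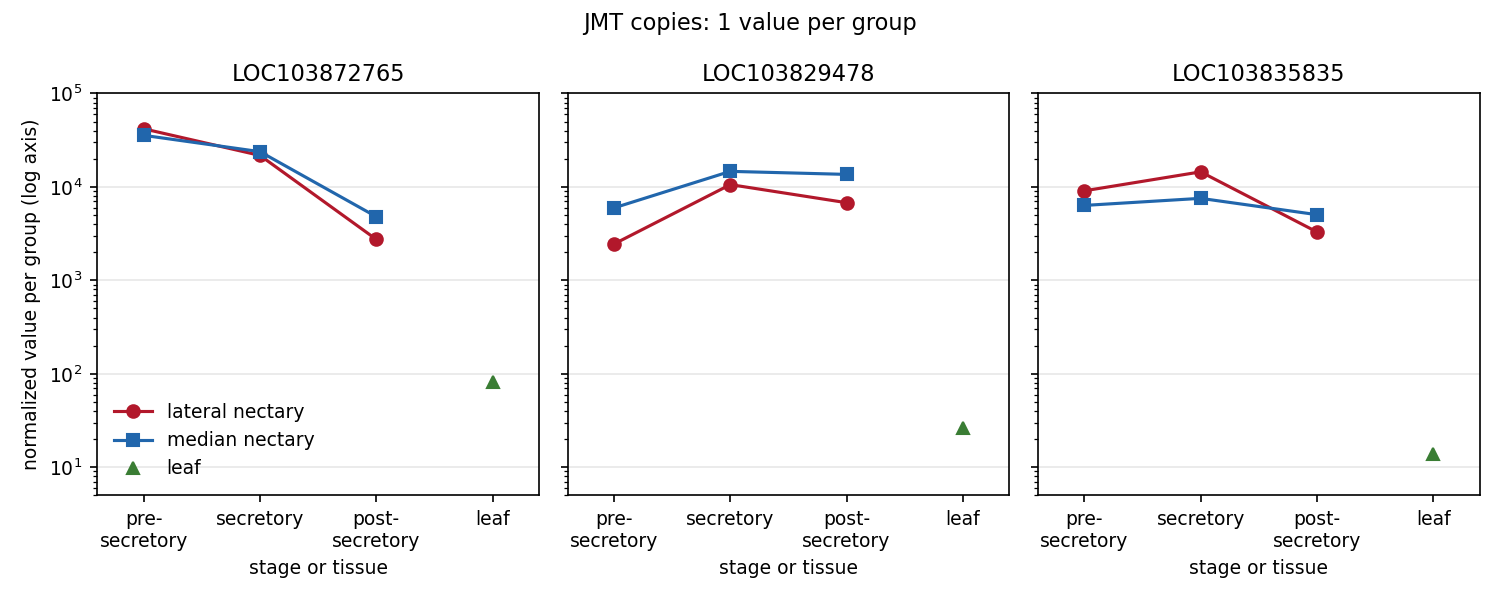
Normalized value per group (log axis) of LOC103872765, LOC103829478 and LOC103835835, with stages from left to right for lateral (circles) and median (squares) nectaries and leaf (triangle) at the right; each point is 1 group value with no error. LOC103872765 is highest before secretion in both nectary types, LOC103829478 and LOC103835835 at secretion in the deposited values, and leaf lies at 81, 26 and 14. With equal column totals or quantile normalization LOC103829478 is highest after secretion and LOC103835835 before secretion in median nectaries. The same holds in lateral nectaries after quantile normalization. With equal totals LOC103829478 is nearly level in lateral nectaries at secretion and after it (log2 difference 0.0011).

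Against leaf, the log2 differences ran from 5.07 to 8.997 for LOC103872765, from 6.505 to 9.09 for LOC103829478 and from 7.78 to 9.92 for LOC103835835. The lowest, for LOC103872765 in lateral post-secretory nectaries, was 33.5-fold, and the highest, for LOC103835835 in lateral secretory nectaries, was 967-fold. All 3 copies were at least 2-fold higher in lateral pre-secretory (23% of all transcripts were), lateral secretory (29.6%), lateral post-secretory (19.7%), median pre-secretory (21.8%), median secretory (25.1%) and median post-secretory nectaries (22%), and 0 copies were lower in any (19.8%, 27.7%, 14.7%, 20.1%, 25.2% and 20.9% of all transcripts in the same order). Of all transcripts, between 0.132% and 1.73% had a difference from leaf at least as high as that of a JMT copy, depending on copy and group. The 6 comparisons share the leaf value and are not independent of each other. Leaf was the one other tissue, so these differences do not separate nectary from other floral tissue.

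LOC103872765 was highest before secretion. In lateral nectaries it was listed at 21729 at the secretory stage, against 41896 at the pre-secretory stage, a log2 difference of -0.95 that is within 2-fold. The corresponding difference in median nectaries was -0.58. With equal column totals the lateral difference was -1.44, past 2-fold, a scaling that shifts every transcript of that step by about -0.49. After secretion the copy was lower in both types, 7.92-fold in lateral nectaries (2744 at the post-secretory against 21729 at the secretory stage) and 4.96-fold in median nectaries (4803 against 23845). The lateral log2 difference, -2.98 as deposited, was -2.34 with equal totals and -2.21 after quantile normalization. Of all transcripts, 3.43% and 2.47% were as low in these lateral and median steps. From the pre-secretory to the post-secretory stage the span was widest, with log2 differences of -3.93 in lateral and -2.89 in median nectaries. The order of its levels over groups was lateral pre-secretory, median pre-secretory, median secretory, lateral secretory, median post-secretory, lateral post-secretory and leaf. Its closest neighbours in that order, median and lateral secretory, were 1.10-fold apart.

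LOC103829478 took the opposite course at the onset of secretion. It was 4.32-fold higher in lateral nectaries at the secretory stage (10589) than at the pre-secretory stage (2451) and 2.46-fold higher in median nectaries (14678 against 5968). Of all transcripts, 8.82% and 13.2% had differences at least as high in the lateral and the median step. With the same column totals the median difference was 0.88, under 2-fold. After secretion it stayed within 2-fold of the secretory value, at log2 differences of -0.64 in lateral and -0.11 in median nectaries, and these small differences turned to 0.0011 and 0.42 with the same totals and to 0.28 and 0.50 after quantile normalization. The post-secretory value was therefore still 2.76-fold above the pre-secretory one in lateral nectaries and 2.28-fold in median nectaries. Its order was median secretory, median post-secretory, lateral secretory, lateral post-secretory, median pre-secretory, lateral pre-secretory and leaf, with median secretory and median post-secretory 1.08-fold apart.

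Pollen markers were also higher at the stages where LOC103829478 was higher. The 6 pollen marker transcripts summed to 663, 4279 and 3451 in lateral nectaries before, during and after secretion and to 1204, 6909 and 11403 in median nectaries, against 204 in leaf, with none at 0 in any group. ACA9 (LOC103859893), a pollen calcium pump, was listed at 250, 2324 and 942 in lateral and at 742, 2747 and 2408 in median nectaries, against 40 in leaf. Over the 6 nectary groups its Pearson r with LOC103829478 was 0.991, the second highest of 9596 transcripts. The other 5 pollen transcripts had their highest value at the post-secretory stage in both types. AP3, the measured marker of petals and stamens, was listed at 298, 188 and 70 in lateral and at 218, 209 and 80 in median nectaries over the stages, against 1 in leaf. The 3 handling-stress transcripts summed to 20, 2461 and 132 in lateral and to 6, 1147 and 255 in median nectaries over the stages, against 402 in leaf. The part of pollen or of handling in the JMT values was not tested.

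LOC103835835 differed less between the first stages. It was listed at 14498 in lateral secretory against 9085 in lateral pre-secretory nectaries, a log2 difference of 0.67, and at 7548 in median secretory against 6339 in median pre-secretory nectaries, a difference of 0.25. After quantile normalization these differences were -0.13 and -0.15, and with equal totals they were 0.18 and -0.16, so their direction depends on the scaling. At the post-secretory stage it was 4.39-fold lower than at secretion in lateral nectaries (3298 against 14498), whereas in median nectaries the difference was -0.58 (5047 against 7548). The lateral log2 difference, -2.14 as deposited, was -1.49 with equal totals and -1.36 after quantile normalization. Its order was lateral secretory, lateral pre-secretory, median secretory, median pre-secretory, median post-secretory, lateral post-secretory and leaf, with median secretory and median pre-secretory 1.19-fold apart.

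Counted together at the onset of secretion, 1 of the 3 copies was at least 2-fold higher in lateral nectaries (21.5% of all transcripts) and 0 lower (23.5%), and in median nectaries 1 was higher (17.6%) and 0 lower (18.4%). At the end of secretion 2 copies were lower in lateral nectaries (18.4% of all transcripts) and 1 in median nectaries (15%), with 0 higher in either (23.9% and 17.5%). Between the pre-secretory and post-secretory stages 1 copy was higher and 2 lower in lateral nectaries (17% and 14.3% of all transcripts), and 1 was higher and 1 lower in median nectaries (19.8% and 21.7%). With equal column totals the counts over all transcripts were 2024 higher and 5111 lower at the lateral onset, in place of 3094 and 3386, and 5757 higher and 1383 lower at the lateral end, in place of 3445 and 2652. At the median end they were 4048 higher and 1063 lower, in place of 2515 and 2157. Copies past 2-fold in opposite directions between the pre-secretory and post-secretory stages were found in both nectary types. Of the 95 loci with 3 copies described below, this held for 3 in lateral (3.16%) and 4 in median nectaries (4.21%), JMT included. The onset and end steps share the secretory value and are not independent.

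**Figure D2:**
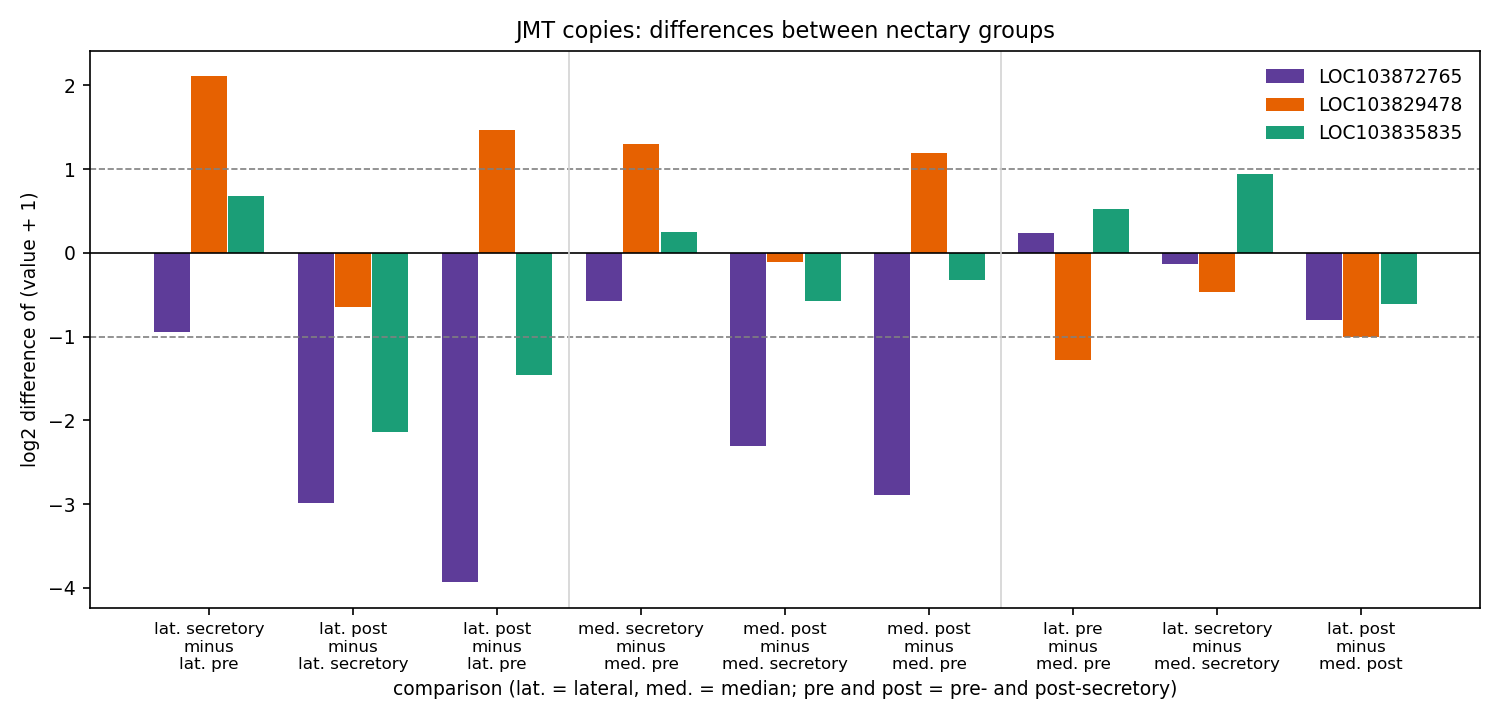
Log2 differences of (value + 1) for each JMT copy in the 9 comparisons among nectary groups; each bar is a difference of 2 group values with no error, and dashed lines mark 2-fold. LOC103872765 lies below 0 in all 6 stage comparisons, while LOC103829478 is past 2-fold upward in 4 of them and at -0.64 and -0.11 in the steps after secretion, which are 0.0011 and 0.42 with equal column totals.

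The copies diverged from each other in the stage comparisons, a measure in which column totals and transcript lengths cancel. Relative to LOC103872765, LOC103829478 was higher at secretion than before it by 8.33-fold in lateral and by 3.68-fold in median nectaries. It gained a further 5.07-fold in lateral and 4.61-fold in median nectaries at the post-secretory stage, so that from the pre-secretory to the post-secretory stage the copies moved apart by 42.2-fold in lateral and 16.9-fold in median nectaries. The lateral divergence over the whole course had log2 values between 5.39 and 5.95 and the median one between 4.08 and 4.23 under every scaling and pseudocount tried. Relative to LOC103872765, LOC103835835 moved by 5.54-fold in lateral and 5.91-fold in median nectaries over the same course, and relative to LOC103835835, LOC103829478 moved by 7.61-fold and 2.87-fold.

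For scale, there were 95 Arabidopsis loci matched by exactly 3 Brassica rapa genes, a set chosen after the data were seen. Only transcripts matched to 1 locus and with a nectary value of at least 10 were used. From the pre-secretory to the post-secretory stage, the median locus had a log2 spread between its copies of 0.61 in lateral and 0.57 in median nectaries. The JMT spread, 5.399 and 4.08, was reached by 3 of the 95 loci in lateral and by 3 in median nectaries, JMT included. The JMT copies were themselves chosen with earlier results of these data known, so their place among these loci is a description and not a test. At the onset of secretion the JMT spread was reached by 8.42% of these loci in lateral and by 12.6% in median nectaries. Reads shared between similar copies were split by a method not given in the sources used here, and the Brassica juncea copies behind each Brassica rapa transcript were not separated.

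Summed over the 3 copies, the JMT value was listed at 46816 in lateral secretory nectaries against 53432 in lateral pre-secretory ones, 1.14-fold lower, and at 46071 in median secretory against 47965 in median pre-secretory nectaries, 1.04-fold lower. The sum adds values that may not be per length, and after quantile normalization the lateral sum was 2.11-fold lower and the median one 1.40-fold lower. At the post-secretory stage the sum was 12820 in lateral and 23469 in median nectaries, 3.65-fold and 1.96-fold below the secretory sums. With equal totals these sums were 2.34-fold and 1.36-fold below, and after quantile normalization 1.98-fold and 1.29-fold. The share of LOC103872765 in the sum was 78.4%, 46.4% and 21.4% in lateral nectaries and 74.3%, 51.8% and 20.5% in median nectaries over the 3 stages. LOC103829478 had 4.59%, 22.6% and 52.9% in lateral and 12.4%, 31.9% and 58.0% in median nectaries. LOC103835835 had 17.0%, 31.0% and 25.7% in lateral and 13.2%, 16.4% and 21.5% in median nectaries. From stage to stage the share of LOC103872765 was thus lower and that of LOC103829478 higher in both nectary types, while that of LOC103835835 after secretion was lower in lateral and higher in median nectaries. No interval is given for these shares, since the values are not counts.

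**Figure D3:**
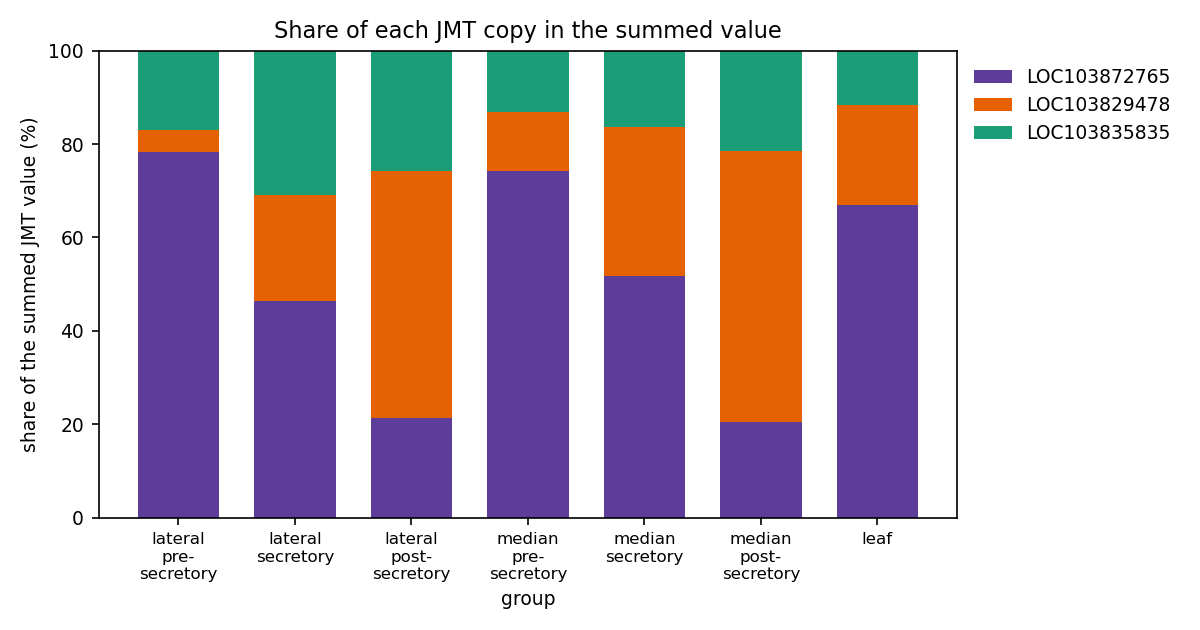
Share (%) of each JMT copy in the summed JMT value of each group, 1 value per group with no error. The share of LOC103872765 is 78.4% and 74.3% in lateral and median pre-secretory nectaries and 21.4% and 20.5% in the post-secretory ones; the leaf bar rests on a sum of 121.

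Between the nectary types, 1 copy was past 2-fold. LOC103829478 was lower in lateral than in median nectaries before secretion, 2.43-fold (2451 against 5968), and 2.65% of all transcripts were as low. It was also lower at the post-secretory stage, 2.01-fold (6778 against 13619), and within 2-fold at secretion, with a log2 difference of -0.47. LOC103835835 was within 2-fold at each stage, with log2 differences of 0.52, 0.94 and -0.61 from the pre-secretory to the post-secretory stage. LOC103872765 was also within 2-fold, at 0.23, -0.13 and -0.81. In count, 1 of the 3 copies was at least 2-fold lower in lateral than in median nectaries before secretion (4.42% of all transcripts), 0 at secretion (12.9%) and 1 after secretion (9.41%), and 0 were higher at any stage (7.9%, 14.7% and 12.6% of all transcripts). The post-secretory difference of LOC103829478 fell under 2-fold, to -0.87, with the same column totals.

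The stage steps themselves differed between the types for part of the copies. The step from secretory to post-secretory was more negative in lateral than in median nectaries by 1.56 (log2) for LOC103835835, 1 of 3 copies past 2-fold (15.3% of all transcripts in that direction). Over the whole course LOC103872765 and LOC103835835, 2 of 3 copies, were more negative in lateral nectaries by 1.04 and 1.13 (11.6%), the first of these by 0.997 with the same column totals. For the onset step 0 of 3 differed by 2-fold (10.9% of all transcripts upward and 11% downward). These differences between the types were not tested.

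In the jasmonate synthesis list, 13 transcripts of 9 measured loci out of 19 listed, 1 was higher and 8 lower at the lateral onset of secretion (median log2 -1.16), where 21.5% of all transcripts were higher and 23.5% lower (median -0.04). At the median onset 1 was higher and 6 lower (median -0.88), against 17.6% and 18.4% of all transcripts (median 0.03). The list also holds AIM1 and MFP2 transcripts, described as fatty acid beta-oxidation proteins. Its ACX1 and KAT2 transcripts are described as peroxisomal acyl-coenzyme A oxidase and peroxisomal 3-ketoacyl-CoA thiolases, and its PXA1 transcript as an ABC transporter. The counts of this list are therefore not of jasmonate synthesis alone. The lipoxygenase LOX2 (LOC103830993), which starts the pathway, was listed at 38280, 2487 and 38 in lateral and at 42550, 3524 and 185 in median nectaries over the stages, against 995 in leaf. Its other transcript (LOC103830390) was 22.9-fold lower at secretion in lateral and 10.9-fold lower in median nectaries. ACX1 (LOC103869185), a peroxisomal oxidase of the last steps, was the higher member, with 9579, 39323 and 6465 in lateral and 12388, 27036 and 14757 in median nectaries. LOC103835792, matched to OPCL1 and 1 other locus and described as a 4-coumarate--CoA ligase-like protein, was listed at 48888, 96339 and 315 in lateral and at 81329, 121755 and 13104 in median nectaries. LOC103835791, matched to OPCL1 alone, had the opposite direction at the onset. It was listed at 2144, 670 and 315 in lateral and at 1934, 418 and 145 in median nectaries, against 121 in leaf.

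The S-adenosylmethionine cycle, which supplies the methyl group and clears the S-adenosylhomocysteine left by it, was lower at the onset in nearly every transcript. Of its 9 transcripts, 0 were higher and 8 lower at the lateral onset of secretion (median -1.76), against 21.5% and 23.5% of all transcripts, and 0 were higher and 9 lower at the median onset (median -2.13), against 17.6% and 18.4%. The transcript matched to both SAHH1 and SAHH2 (LOC103863580), the hydrolase of S-adenosylhomocysteine, was listed at 80157, 21232 and 12553 in lateral and at 84200, 22462 and 6058 in median nectaries over the stages, against 5387 in leaf. MAT3 (LOC103865564), an S-adenosylmethionine synthetase, was 7.10-fold lower at secretion in lateral and 4.37-fold lower in median nectaries. A SAM2 transcript (LOC103858801), another synthetase, was 9.46-fold lower in median nectaries, and a transcript of the methionine synthase MS1 (LOC103851137) was 8.09-fold lower in lateral and 13.2-fold lower in median nectaries. LOC103872765 shared the direction of these transcripts at the onset, but within 2-fold, at -0.95 in lateral and -0.58 in median nectaries. LOC103829478 had the opposite direction.

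**Figure D4:**
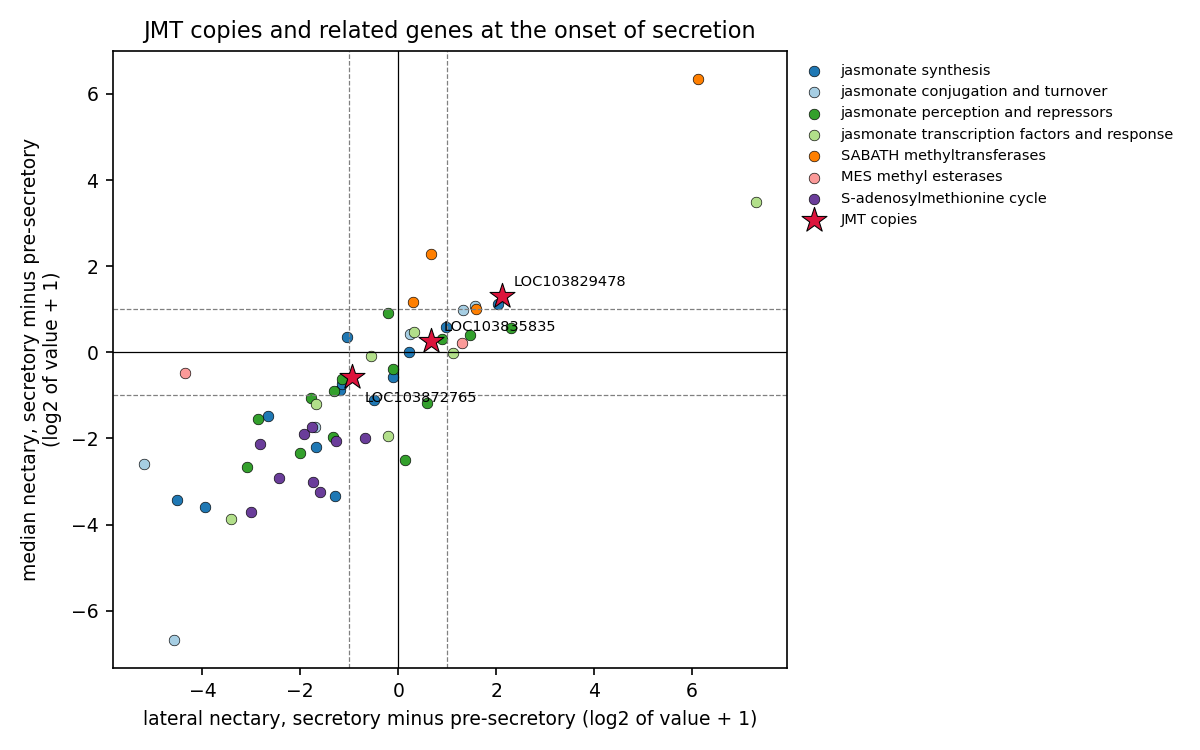
Log2 difference (value + 1), secretory minus pre-secretory, in lateral nectaries (x axis) and median nectaries (y axis); each point is a transcript of a related gene list and the stars are the JMT copies, with dashed lines at 2-fold. LOC103829478 lies at 2.11 and 1.298, in the upper right, while 8 and 9 of the 9 S-adenosylmethionine cycle transcripts lie below -1 on the lateral and the median axis.

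Enzymes that act on jasmonic acid or its conjugate in other ways were mixed. Of 6 conjugation and turnover transcripts, 2 were higher and 3 lower at the lateral onset (median -0.73), against 21.5% and 23.5% of all transcripts, and 1 was higher and 3 lower at the median onset (median -0.66), against 17.6% and 18.4%. IAR3 (LOC103868548), an amidohydrolase that splits the isoleucine conjugate, was listed at 1046, 3085 and 1873 in lateral and at 782, 1636 and 5297 in median nectaries, against 351 in leaf. JOX1 (LOC103847060), a jasmonic acid hydroxylase, was 2.497-fold higher at secretion in lateral nectaries and 1.98-fold higher in median ones. The sulfotransferase ST2A (LOC103850640) was listed at 864, 35 and 15 in lateral and at 613, 5 and 88 in median nectaries, and the hydroxylase JOX3 (LOC103863130) at 183, 4 and 34 and at 17, 2 and 14. JAR1 was not analysed here.

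Among 14 transcripts of perception and repressor genes, 2 were higher and 7 lower at the lateral onset (median -0.68; 21.5% and 23.5% of all transcripts), and 0 were higher and 7 lower at the median onset (median -0.98; 17.6% and 18.4%). JAZ9 (LOC103852676), a repressor, was listed at 7458, 2160 and 509 in lateral and at 9780, 4696 and 952 in median nectaries over the stages, a course in the same direction as that of LOC103872765. JAZ5 (LOC103835959) was 8.45-fold lower at secretion in lateral and 6.31-fold lower in median nectaries. A JAZ10 transcript (LOC103856007), another repressor, was 4.96-fold higher in lateral nectaries at secretion and 1.49-fold higher in median ones, and a transcript of the receptor COI1 (LOC103865754) was 2.77-fold and 1.33-fold higher. Of 7 transcripts of response factors and markers, 2 were higher and 2 lower at the lateral onset (median -0.21; 21.5% and 23.5% of all transcripts), and 1 was higher and 3 lower at the median onset (median -0.08; 17.6% and 18.4%). MYB57 (LOC103870993), a floral MYB factor, was 159-fold and 11.2-fold higher, MYC2 (LOC103874758), the main jasmonate bHLH factor, 3.19-fold and 2.31-fold lower, and VSP1 (LOC103854787), a storage protein marker of jasmonate response, 10.6-fold and 14.5-fold lower in lateral and median nectaries. The floral factor MYB21 (LOC103875192) was listed at 13269, 28921 and 1502 in lateral and at 11536, 11381 and 3927 in median nectaries, against 25 in leaf. Another MYB21 transcript (LOC103837005) was listed at 5160, 4454 and 177 in lateral and at 3450, 892 and 286 in median nectaries, against 5 in leaf. This second transcript was 3.86-fold lower at the median onset.

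The rest of the SABATH family had few members in the table, 4 transcripts of 4 measured loci out of 23 listed, where a transcript matched to several loci counts for each of them. At the onset of secretion 2 of the 4 were higher in lateral nectaries (21.5% of all transcripts) and 4 in median nectaries (17.6%), with 0 lower (23.5% and 18.4%), 1 of them at values of 3 or less. The transcript matched to NAMT1 and AT5G04380 (LOC103847297), described as a salicylate/benzoate carboxyl methyltransferase-like protein, was listed at 0 to 3 in the nectary groups and at 4566 in leaf, opposite to the JMT copies. GAMT2 (LOC103856939), a gibberellin methyltransferase, had a pair of transcript variants between which reads could have been split. One variant was listed at 0, 69 and 509 in lateral and at 4, 407 and 4393 in median nectaries over the stages, against 3 in leaf, and the other at 23, 37 and 143 and at 23, 116 and 938, against 13 in leaf. Both GAMT2 variants were thus highest after secretion, the stage at which the JMT sum was lowest. LOC103867926, matched to AT4G36470, was listed at 296, 364 and 166 in lateral and at 72, 162 and 127 in median nectaries, against 54 in leaf.

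Methyl esterases of the MES family, some of which hydrolyse methyl jasmonate in Arabidopsis, had 2 transcripts, of which 1 was higher and 1 lower at the lateral onset (21.5% and 23.5% of all transcripts) and 0 differed by 2-fold at the median onset (17.6% higher and 18.4% lower). MES9 (LOC103864108) was listed at 40, 1 and 270 in lateral and at 6, 4 and 620 in median nectaries over the stages, against 121 in leaf. MES16 (LOC103869295), described as a pheophorbidase, was listed at 135, 335 and 507 in lateral and at 73, 85 and 762 in median nectaries, against 548 in leaf. Both were highest after secretion in either nectary type, where LOC103872765 was at its lowest nectary values.

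The transcripts with the profile most like each copy over the 7 groups differed between copies. Pearson's r of log2(value + 1) was taken against 9603 transcripts with an Arabidopsis match. Since leaf is far from the nectary groups, it weighs heavily in every r. Without leaf, 0 or 1 of the 5 transcripts named below for each copy stayed among the 5 highest. Pearson's r also takes no account of the size of a difference. Of those named below, LOC103872448 was listed between 357 and 409 in nectaries, against 299 in leaf, and LOC103853520 between 251 and 265, against 183. For LOC103872765 the 5 highest were LOC103842517, a phosphatidylinositol transfer protein (r = 0.994), LOC103864621, a MEMO1-like protein (0.993), CRC (LOC103831319), a YABBY factor required to form nectaries in Arabidopsis (0.992), LOC103872448, a Per1-like protein (0.991), and LOC103830495, a MYB factor (0.990). CRC was listed at 63385, 39366 and 8025 in lateral and at 58387, 48454 and 10577 in median nectaries, against 92 in leaf. Over the 6 nectary groups alone it was the second highest for this copy (r = 0.996). The other nectary markers, CWINV4 (r = 0.921) and SWEET9 (r = 0.081), took positions 274 and 4560 of 9596 there.

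For LOC103829478 the 5 highest were the MATE transporter LOC103843230 (r = 0.992), LOC103855611 (0.990), LOC103861140 (0.989), the epithiospecifier-like LOC103871085 (0.987) and LOC103853520 (0.986). LOC103843230 was listed at 3071, 5842 and 5936 in lateral and at 4514, 8185 and 6290 in median nectaries, against 46 in leaf. For LOC103835835 they were LOC103865803, a heat stress factor with values between 2 and 15 in all groups (0.997), the cyclin LOC103874972 (0.994), the UDP-glycosyltransferase LOC103830724 (0.993), the exchange factor LOC103866931 (0.990) and SEP1 (LOC103846385), a floral organ identity factor (0.989). LOC103830724 was listed at 4868, 12624 and 1405 in lateral and at 3772, 4474 and 2741 in median nectaries, against 15 in leaf. No copy was among the 5 highest of another: the closest, LOC103835835 for LOC103829478, took position 81 (r = 0.940).

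Between the copies themselves, r over the 7 groups was 0.804 for LOC103829478 with LOC103872765, 0.940 for LOC103829478 with LOC103835835 and 0.937 for LOC103835835 with LOC103872765. Without leaf, over the 6 nectary groups, these were -0.38, -0.049 and 0.748. The shared part of the profiles was therefore mainly the difference from leaf, and over nectary groups the r was positive for LOC103872765 with LOC103835835 alone.

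**Figure D5:**
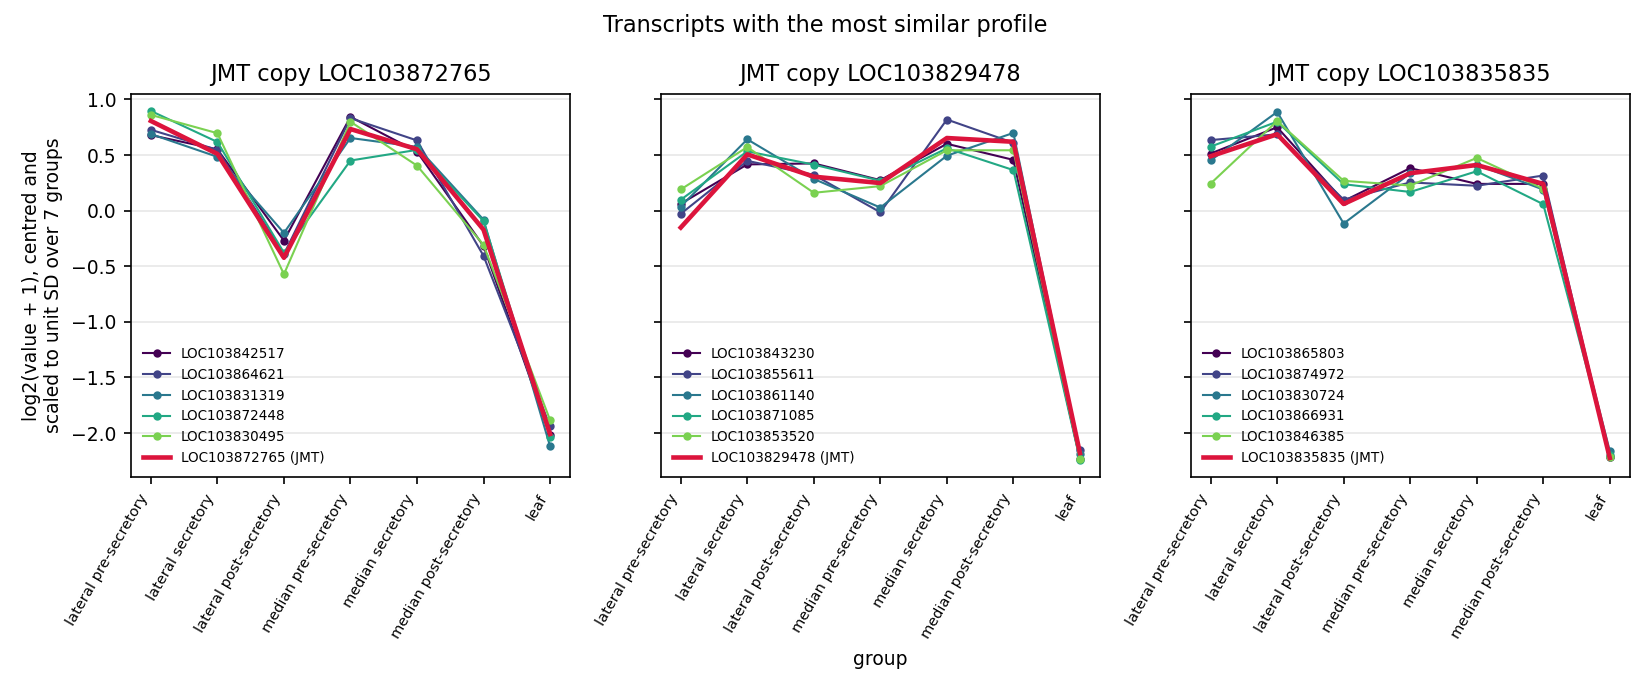
Log2(value + 1), centred and scaled to unit SD over the 7 groups, for each JMT copy (thick red) and the 5 transcripts of highest Pearson r with it (thin lines). Points are single group values with no error, and the scaling hides how large the differences of each transcript are. Leaf, at the right, is the lowest point of each profile, and among nectary groups LOC103872765 and its neighbours are lowest after secretion while LOC103829478 is lowest before it.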

How the data were processed

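Per the labels, TruSeq RNA v2 libraries from leaf and nectaries were sequenced with 50 bp paired-end reads, 21 libraries in 7 groups. The deposited table holds 1 score for each transcript in each group, which is a normalized whole-number value. Per the file headers, 6 columns are marked UQN, read here as upper-quartile normalized, and the lateral post-secretory column carries no mark. For the aligner, counting method and averaging over libraries, nothing is given in the sources used here.

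A transcript entered if 3 or more groups had a value of 1 or more (14390 did and 8 did not). Log2(value + 1) differences were computed in Python 3.11.15 with pandas 2.3.3 and numpy 2.4.6, and 2-fold was the size counted. There were 15 comparisons of group columns and no test, since each group has 1 value. The code was checked on simulated data. Related genes came from lists of Arabidopsis loci. In each list, the transcript of largest mean and those with the largest onset differences were named, and for each copy the 5 transcripts of highest Pearson r with a value of at least 10. The JMT copies and the lists were chosen with earlier results of these data known. Alternatives were pseudocounts of 10 and 0.1, equal column totals, equal medians, quantile normalization and no filter. Equal totals without LOC103828338 and profiles without lateral post-secretory nectaries were added after seeing the data.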

Additional observations from a re-analysis of the deposited data

Results flagged for a closer look

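Among the JMT copies and the transcripts that the naming rule picked from the related lists, opposite directions in parallel comparisons, at least 2-fold apart, were found for 2 copies and 7 related transcripts, and none of these differences could be tested with 1 value per group. How many of all transcripts meet this rule was not counted. Stage steps at least 2-fold apart between the nectary types, whatever their sign, were found for 10.9% to 17.3% of all transcripts in each direction. The lateral minus median log2 difference of LOC103872765 was 0.23 before secretion and -0.81 after it. For LOC103835835 it was 0.52 before secretion, 0.94 at secretion and -0.61 after it. Every difference here that involves lateral post-secretory nectaries, for either copy or a related transcript, rests on the column without the normalization mark. At the onset of secretion, the JAZ10 transcript LOC103846592 differed by -0.22 in lateral and by 0.92 in median nectaries, the JAZ3 transcript LOC103838951 by 0.15 and by -2.50, and MYB21 (LOC103875192) by 1.12 and by -0.020. In each of these 1 value is near 0, where the direction can depend on the scaling: equal column totals shift the lateral onset by about -0.49. At the end of secretion IAR3 (LOC103868548) differed by -0.72 in lateral and by 1.69 in median nectaries and ST2A (LOC103850640) by -1.17 and by 3.89. From the pre-secretory to the post-secretory stage the JAZ10 transcripts differed by -1.60 in lateral and by 0.39 in median nectaries (LOC103856007) and by -0.95 and 0.76 (LOC103846592), and LOC103867926, matched to AT4G36470, by -0.83 and 0.81.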

How the results depend on the processing

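Of 594 JMT values recomputed under alternatives, 582 stayed on the same side of 2-fold and 12 did not. Of the 582, 268 were differences between copies, in which a change of column total or median largely cancels, so the count does not measure robustness. Small differences that changed sign also count as staying, such as LOC103829478 at the median end, -0.11 as deposited and 0.50 after quantile normalization. All 108 against leaf stayed, between log2 4.91 and 10.01, far from 2-fold under every alternative. At the lateral onset LOC103872765 was at -1.44 with equal totals, -1.91 after quantile normalization and -1.42 with equal totals without LOC103828338 (13.2% of the median secretory column), an added alternative, and at the median onset it was at -1.06 after quantile normalization. LOC103829478 at the median onset was at 0.88 and 0.90 with equal totals and quantile normalization, and lateral minus median after secretion at -0.87 and -0.84, or -0.88 without LOC103828338. For the lateral minus median course of LOC103872765 equal totals gave -0.997. LOC103829478 minus LOC103872765 in median pre-secretory nectaries against leaf was -1.24 with a pseudocount of 10 and -1.03 after quantile normalization. Among list medians, equal totals gave -0.44 and -0.56 for jasmonate synthesis at the lateral and median end of secretion and -1.30 at the median onset, -1.22 and -1.07 for conjugation at the lateral and median onset, -1.17 and -1.39 for perception, 0.79 for SABATH at the lateral onset and 1.17 at the lateral end, and -0.55 for the S-adenosylmethionine cycle at the median end. Quantile normalization gave 0.85 for synthesis in lateral secretory nectaries against leaf, -0.94 and -0.76 at the lateral and median end and -1.24 at the median onset, -1.06 for conjugation at the lateral end, 0.87 for SABATH at the lateral onset and -0.87 for the cycle at the median end. With 1 transcript per locus synthesis was at -0.80 and -0.87 at the lateral and median end, perception at 0.93 in lateral secretory nectaries against leaf and -1.22 at the lateral onset, and SABATH at 0.66 at the lateral onset and 0.00 at the median end. The cause was not tested. With equal totals the lateral onset had 2024 transcripts higher and 5111 lower, in place of 3094 and 3386, the lateral end 5757 and 1383 in place of 3445 and 2652, and the median end 4048 and 1063 in place of 2515 and 2157, and lateral post-secretory nectaries had 4624 above leaf in place of 2832. Of the 5 transcripts named by profile, 0 or 1 per copy stayed among the 5 highest with Spearman's rho or without leaf, and 2 without the lateral post-secretory column. No paired analysis was possible because the table has no values per library, and leaving out a replicate was not run for the same reason. With no depth or spread, how small a difference could be told from noise is unknown.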

Other observations

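The 3-copy loci whose copies moved apart as widely as those of JMT between the pre-secretory and post-secretory stages were the same 2 others in both nectary types, AT5G06860 and AT3G20370, named after their values were seen. The copies matched to AT5G06860 are described as polygalacturonase inhibitors, which act against pectin-degrading enzymes. LOC103855709 was listed at 17185, 994 and 39 in lateral and at 6366, 253 and 60 in median nectaries from the pre-secretory to the post-secretory stage, against 98 in leaf. LOC103847028 had the opposite course, at 9, 65 and 592 in lateral and at 17, 146 and 790 in median nectaries, against 235 in leaf. LOC103847027 followed it, at 134, 531 and 686 and at 118, 483 and 758, against 100 in leaf. Of the AT3G20370 copies, LOC103849486 was listed at 4, 617 and 285 in lateral nectaries and LOC103864488 at 1743, 118 and 184.

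Over the 6 nectary groups alone, the transcripts of highest r named after their values were seen were LOC103874134, an extensin-like protein, for LOC103872765 (0.996), LOC103865004, described as a protein kinase, for LOC103829478 (0.993) and LOC103870522, a syntaxin, for LOC103835835 (0.991).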
